A study of Mus musculus with 8 samples.

Results

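Effector Treg cells are the activated fraction of regulatory T (Treg) cells, and 10 transcription factors known from this state or from the effector T cell lineages were followed here: Prdm1, Batf, Irf4, Maf, Id2, Gata3, Rora, Bhlhe40, Tbx21 and Nfil3. They were chosen by name, with earlier results of these data known. Each is represented by 1 of the 42748 genes in the deposited table (the row with the highest total count where a symbol occurs more than once). All 10 passed the filter on low counts, which kept 15063 genes.

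The cells came from female mice with the genotype Ripk1 fl/fl Foxp3 Cre-YFP/wt. Spleen and lymph nodes were pooled, and CD4+ CD25+ cells were sorted into a YFP+ and a YFP- fraction, with 4 bulk RNA libraries each, numbered 21, 46, 48 and 53. YFP+ cells express the Cre recombinase and are the Ripk1-deficient fraction (Ripk1-/- in the labels), whereas YFP- cells keep the kinase Ripk1 (Ripk1+/+ in the labels). These females are natural chimeras, since Foxp3, the gene that drives Cre, lies on the X chromosome and 1 of its alleles is silenced in each cell. The sources used here do not give the ages, or say whether the libraries of a fraction are from separate mice. The spread behind each p-value is thus one between libraries and may be technical. Both fractions carry the floxed Ripk1 alleles, and YFP+ cells alone express the Cre-YFP knock-in at Foxp3, so its effects and those of Ripk1 loss cannot be told apart. CD25 is also carried by activated conventional CD4+ T cells, which the YFP- gate would keep and the Foxp3-driven YFP+ gate would not.

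Treg cells leave a resting state when T cell receptor, costimulatory and cytokine signals reach them. Irf4 and Batf then bind DNA together with Jun proteins at composite sites, and Blimp-1 (encoded by Prdm1) and c-Maf are associated with the mature effector program and with Il10. Gata3, T-bet (encoded by Tbx21) and ROR-alpha (encoded by Rora) are lineage factors of helper T cells and innate lymphoid cells that Treg cells share in tissues and in inflammation.

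Total counts were 29719251 to 55371610 in YFP+ libraries and 43737313 to 70782679 in YFP- libraries. The YFP+ library 21 stood apart: 9571 genes had at least 10 counts in it, against 13047 to 15550 in the other YFP+ libraries and 15425 to 16558 in YFP- libraries, and 16.2% of the genes tested were at 0 in it. The share at 0 was 2.33, 1.74 and 5.88% in YFP+ libraries 46, 48 and 53, also above the 0.159 to 0.538% in YFP- libraries. The highest correlation of YFP+ library 21 with any other library was 0.652. The tests of the 10 factors are therefore given with and without that library. Ripk1 measured 15.2, 28.7, 19.9 and 26.1 CPM (counts per 1000000 counts of the library, scaled with TMM) in YFP+ libraries 21, 46, 48 and 53, against 20.5, 44.3, 29.5 and 23.2 CPM in the YFP- libraries of those numbers, and the fractions overlapped (log2 fold change -0.38, standard error 0.39, adjusted p = 0.713 from edgeR). Counts over a whole gene say nothing of an excised exon. The 10 T cell and Treg markers summed to 4548 to 6728 CPM in YFP+ libraries, against 5066 to 5870 CPM in YFP- libraries. Il2ra, which encodes CD25, ranged over 926 to 1280 CPM in YFP+ libraries, against 1145 to 1308 CPM in YFP- libraries. Cd4 was 84.4 and Il2rb 0.142 CPM in YFP+ library 21, against at least 372 and 530.0 CPM in every YFP- library. Of the list edgeR called 0 genes (2 at an unadjusted p under 0.05, beside 12.6% of all genes tested). DESeq2 called 1, Ikzf4, lower, beside 4.43% of the genes with an adjusted p. Foxp3 is listed at 0 in every library. All of its exons lie within the spans of other annotated genes, so a 0 here does not show that the RNA is missing (how such genes were counted was not tested), and the label Treg could not be checked with its defining gene.

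Among the 10 factors, Batf, Maf and Nfil3 stood apart from the others: every YFP+ library lay below every YFP- library. Over all genes tested, 10.6% did so, so 3 of 10 is to be read against that share. None of the 10 passed the test over all 8 libraries in either direction at an adjusted p under 0.05 (edgeR's quasi-likelihood test, Benjamini-Hochberg adjustment). At that threshold, 0.836% of all genes tested were lower and 0.0332% higher in YFP+ libraries. At an unadjusted p under 0.05, 3 factors passed, beside 12.6% of all genes tested. With DESeq2, 2 of the 10, Batf and Nfil3, were lower, beside 4.43% of the genes with an adjusted p. Tbx21 was given no p-value by DESeq2. Without the YFP+ library 21, edgeR called 1, Batf, lower, beside 3.97% of the genes tested, and the same count with the YFP+ library 48 left out as well, beside 4.28%.

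The plot of CPM by library shows the separation of these 3 factors and the overlap of the other 7.

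**Figure D1:**
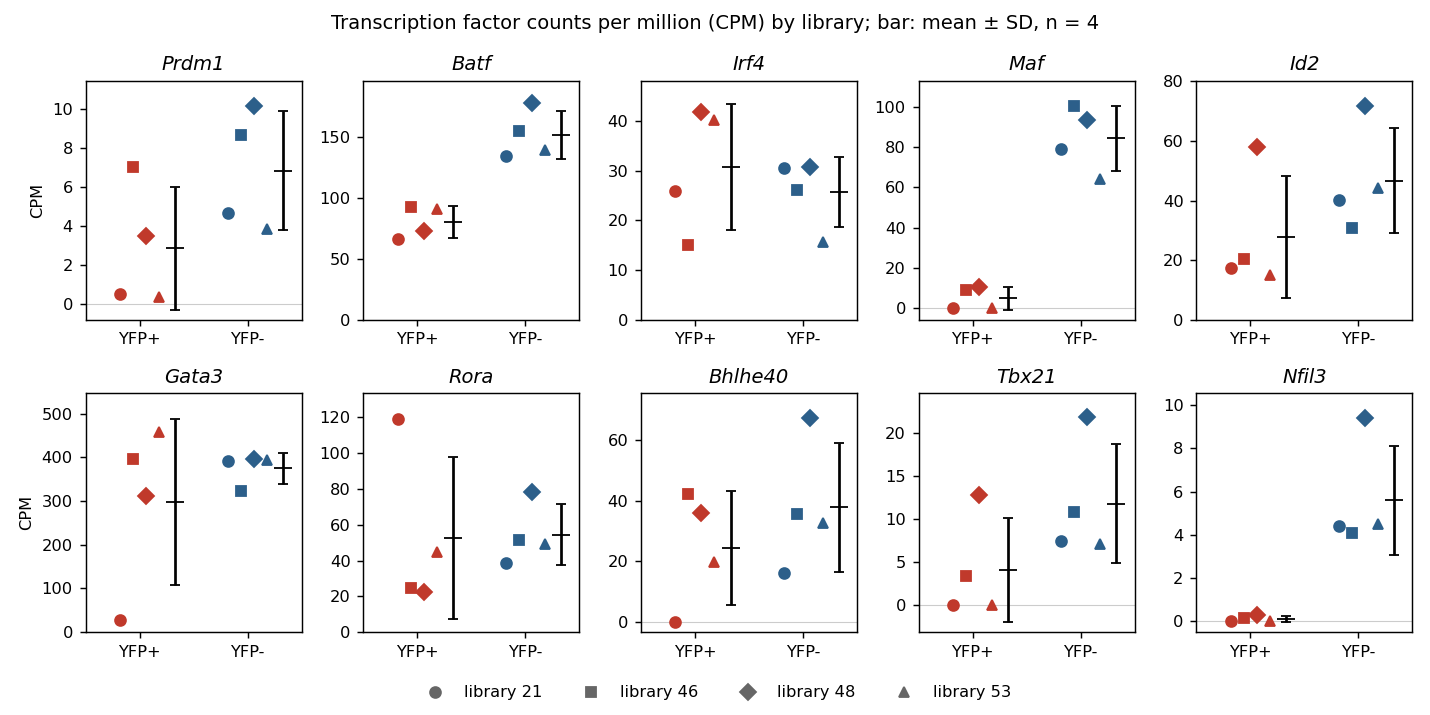
CPM of each factor (vertical axes, a scale of its own for each gene) in the 4 YFP+ libraries (red) and the 4 YFP- libraries (blue), with a symbol for each library number and the mean ± SD of the group in black. For Batf, Maf and Nfil3 the highest YFP+ library, at 92.7, 10.6 and 0.308 CPM, lies below the lowest YFP- library, at 134, 64.1 and 4.11 CPM.

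Batf, a basic leucine zipper (bZIP) factor that needs a Jun partner to bind DNA, lies on chromosome 12 of GRCm38 from 85686669 to 85709087. It measured 66.0, 92.7, 72.9 and 90.8 CPM in YFP+ libraries 21, 46, 48 and 53, against 134, 155, 178 and 139.7 CPM in YFP- libraries of the same numbers. Its YFP+ values were close together, and all lay under the lowest YFP- value. The mean was 80.6 ± 13.2 CPM in YFP+ and 152 ± 19.4 CPM in YFP- libraries (SD, n = 4 each), so YFP+ libraries held 53.1% of the YFP- mean. The log2 fold change was -0.91 (standard error 0.20, edgeR's adjusted p = 0.114), whereas without the YFP+ library 21 it was -0.84 (standard error 0.15, adjusted p = 0.0255), which passed the threshold. An exact two-sided permutation test on log2(CPM + 1) gave p = 0.0286, the smallest that 4 against 4 libraries allow. Every gene whose fractions do not overlap gets this value, so it adds nothing to the separation already stated. In bulk RNA, fewer cells of a type and less RNA per cell cannot be told apart, here and for every gene below.

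Nfil3, a bZIP repressor needed for the development of innate lymphoid cells and known for its part in circadian transcription, lies on chromosome 13 from 52967209 to 52981073. It had 0, 7, 16 and 0 counts in YFP+ libraries 21, 46, 48 and 53, against 333, 329, 454 and 327 counts in the YFP- libraries of those numbers. In CPM these were 0, 0.156, 0.308 and 0 in YFP+ libraries, against 4.41, 4.11, 9.38 and 4.52 in YFP- libraries. Counts of 3 correspond to 0.142 CPM in YFP+ library 21 and 0.0688 CPM in YFP+ library 53, and neither value reached that. Of the genes with a YFP- mean of 1 to 10 CPM, 28.2, 4.94, 3.34 and 12.6% were at 0 in YFP+ libraries 21, 46, 48 and 53. The YFP+ mean of 0.116 ± 0.147 CPM was 2.07% of the YFP- mean of 5.60 ± 2.53 CPM (SD, n = 4 each). The log2 fold change was -5.51 (standard error 1.36, edgeR's adjusted p = 0.151), whereas without the YFP+ library 21 it was -5.15 (standard error 1.20, adjusted p = 0.05002), just short of the threshold. DESeq2 gave an adjusted p of 5.52e-06 over all 8 libraries, and the stricter filter on low counts removed the gene.

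Maf, which encodes the bZIP factor c-Maf, an activator of Il10, lies on chromosome 8 from 115682942 to 115707794. It measured 0.190, 8.93, 10.6 and 0 CPM in YFP+ libraries 21, 46, 48 and 53, against 79.0, 100.2, 93.5 and 64.1 CPM in YFP- libraries of the same numbers. Libraries 46 and 48 held nearly all of the YFP+ counts for Maf, with 401 and 553, whereas 21 and 53 had 4 and 0. Of the genes with a YFP- mean of 50 to 200 CPM, 3.51% were at 0 in YFP+ library 21 and 0.116% in 53. All 4 values lay far under the YFP- range. The mean was 4.94 ± 5.64 CPM in YFP+ and 84.2 ± 16.1 CPM in YFP- libraries (SD, n = 4 each), or 5.87% of the YFP- mean. Because the YFP+ libraries differed so much from each other, the log2 fold change of -4.09 had a standard error of 1.59 and an adjusted p of 0.354, whereas without the YFP+ library 21 it was -3.69 (standard error 1.24, adjusted p = 0.122). Il10 itself averaged 4.56 ± 1.14 CPM in YFP+ and 5.36 ± 1.30 CPM in YFP- libraries (SD, n = 4 each; log2 fold change -0.24, standard error 0.45, adjusted p = 0.867).

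Irf4, the interferon regulatory factor that pairs with Batf and Jun after T cell receptor stimulation, lies on chromosome 13 from 30749226 to 30766976. It measured 26.0, 15.1, 41.9 and 40.3 CPM in YFP+ libraries 21, 46, 48 and 53, against 30.5, 26.0, 30.8 and 15.6 CPM in YFP- libraries of the same numbers. The ranges overlapped, with the 2 highest values of all 8 in YFP+ libraries 48 and 53. Irf4 was the only one of the 10 with a positive estimate (log2 fold change 0.26, standard error 0.43, adjusted p = 0.843), and it did not pass the test (0.33, standard error 0.40, without the YFP+ library 21).

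Prdm1, which encodes the zinc finger repressor Blimp-1, lies on chromosome 10 from 44437177 to 44528501. It measured 0.521, 7.04, 3.52 and 0.390 CPM in YFP+ libraries 21, 46, 48 and 53, against 4.69, 8.70, 10.2 and 3.87 CPM in YFP- libraries of the same numbers. Only the YFP+ library 46 reached the YFP- range. The mean was 2.87 ± 3.13 CPM in YFP+ and 6.86 ± 3.06 CPM in YFP- libraries (SD, n = 4 each), and the log2 fold change of -1.25 had a standard error of 0.96 (adjusted p = 0.611; without the YFP+ library 21, -0.92 with a standard error of 0.87).

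The promoters of Batf, Irf4, Prdm1 and Nfil3 are shown because these genes span the range of responses. The first 3 hold 1 of the 7 short motifs searched and Nfil3 holds none. A link between motifs and fold changes was not tested. Each is the 300 bases around the annotated start in RefSeq (GRCm38.p6), 250 before and 50 after, in the direction of the gene, with motif matches in capitals. The starts used for Prdm1, Gata3 and Id2 lie well inside the GENCODE spans of these genes, which have more than 1 start.
Batf, chr12:85686470-85686769, + strand: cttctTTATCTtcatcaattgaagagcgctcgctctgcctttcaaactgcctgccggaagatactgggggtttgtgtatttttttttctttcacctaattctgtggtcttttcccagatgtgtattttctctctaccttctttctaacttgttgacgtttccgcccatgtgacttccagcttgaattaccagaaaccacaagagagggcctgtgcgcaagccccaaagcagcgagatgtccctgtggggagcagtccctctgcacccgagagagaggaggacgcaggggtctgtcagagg
Irf4, chr13:30748983-30749282, + strand: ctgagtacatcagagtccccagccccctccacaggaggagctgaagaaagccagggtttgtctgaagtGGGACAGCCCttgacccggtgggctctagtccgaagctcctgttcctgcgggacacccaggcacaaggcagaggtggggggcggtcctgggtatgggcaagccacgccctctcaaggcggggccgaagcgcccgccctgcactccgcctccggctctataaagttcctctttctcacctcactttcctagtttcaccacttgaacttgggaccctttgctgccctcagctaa
Prdm1, chr10:44458699-44458998, - strand: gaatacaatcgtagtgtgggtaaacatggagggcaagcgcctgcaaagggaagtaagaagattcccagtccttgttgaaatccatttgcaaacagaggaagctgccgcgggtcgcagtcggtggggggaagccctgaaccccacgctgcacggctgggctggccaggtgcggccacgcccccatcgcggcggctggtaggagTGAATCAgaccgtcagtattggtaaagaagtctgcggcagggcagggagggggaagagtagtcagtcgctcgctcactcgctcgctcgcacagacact
Nfil3, chr13:52980990-52981289, - strand: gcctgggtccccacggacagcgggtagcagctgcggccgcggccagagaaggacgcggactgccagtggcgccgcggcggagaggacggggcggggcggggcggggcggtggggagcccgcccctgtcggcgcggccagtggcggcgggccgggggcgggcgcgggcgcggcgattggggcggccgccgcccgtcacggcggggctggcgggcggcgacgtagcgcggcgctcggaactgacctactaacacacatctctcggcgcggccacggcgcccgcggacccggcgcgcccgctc
The capitals mark a match to the GATA motif AGATAA read on the opposite strand in Batf, 245 bases upstream of the start, a match to the kappaB-like motif (GGGA, 4 bases of any kind, CC) in Irf4, 182 bases upstream, and a match to the AP-1 motif TGANTCA, which Batf-Jun dimers bind, in Prdm1, 48 bases upstream. On both strands, AGATAA occurred in 11.2% of the 32851 promoters in the table, the kappaB-like motif in 20.7% and TGANTCA in 7.81%. Of the 8 factors with an entry in the table, Gata3 held a further kappaB-like match 57 bases upstream, and Rora, Tbx21 and Id2 held none of the 7 motifs. The interferon response motif, GAAA repeated after 2 bases of any kind (3.44% of all promoters), the E-box CACGTG (7.15%), the Nfil3 site TTACGTAA (0.119%) and the STAT motif TTCNNNGAA (8.30%) matched in none of the 8. A match describes the letters only, and the windows of Maf and Bhlhe40 were not analysed here.

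Id2 and Bhlhe40 are helix-loop-helix proteins, and Id2, which lacks a DNA-binding region, holds E proteins off DNA. Id2, on chromosome 12 from 25093799 to 25097140, measured 17.4, 20.4, 58.1 and 14.97 CPM in YFP+ libraries 21, 46, 48 and 53, against 40.1, 30.7, 71.7 and 44.1 CPM in YFP- libraries of the same numbers. YFP+ libraries 21, 46 and 53 lay under the lowest YFP- value, and library 48 was within the YFP- range. The log2 fold change was -0.75 (standard error 0.53, adjusted p = 0.573). Without the YFP+ library 21 it was -0.58 (standard error 0.51), and without 21 and 48 it was -1.40 (standard error 0.37, adjusted p = 0.0844), which did not pass either.

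Bhlhe40, a repressor induced by T cell receptor signals that binds the E-box, lies on chromosome 6 from 108660629 to 108666925. It measured 0, 42.2, 35.8 and 19.9 CPM in YFP+ libraries 21, 46, 48 and 53, against 16.2, 35.7, 67.0 and 32.6 CPM in YFP- libraries of the same numbers. Apart from the YFP+ library 21, where it is listed at 0 counts, the fractions overlapped (log2 fold change -0.63, standard error 1.33, adjusted p = 0.878; without that library, -0.22 with a standard error of 0.48). An antisense gene, 0610040F04Rik, shares 306 bases of its span and had 163 counts in all, against 14306 for Bhlhe40. The sources used here do not say whether counting used strand, and without strand the reads of the 2 cannot be told apart. Annotated genes also lie across parts of Maf, Gata3 and Rora, all of them listed at 0.

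Among the lineage factors, Gata3 had the highest level per kilobase of exon in both fractions. Gata3, the zinc finger factor of type 2 helper cells that is also carried by tissue Treg cells, lies on chromosome 2 from 9857078 to 9890034. It measured 28.0, 395.8, 311 and 457 CPM in YFP+ libraries 21, 46, 48 and 53, against 391, 322, 395 and 393 CPM in YFP- libraries of the same numbers. The YFP+ library 21 was far under all others, and the other YFP+ libraries lay on both sides of the YFP- range. The sign of the estimate turned with that library. In edgeR, the log2 fold change was -0.33 (standard error 0.66, adjusted p = 0.871) with it and 0.04 (standard error 0.14, adjusted p = 0.894) without it.

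Tbx21, which encodes T-bet, the factor of type 1 helper cells, lies on chromosome 11 from 97098071 to 97115331. It measured 0.0474, 3.43, 12.8 and 0.0458 CPM in YFP+ libraries 21, 46, 48 and 53, against 7.46, 10.8, 21.8 and 7.10 CPM in YFP- libraries of the same numbers. YFP+ libraries 21 and 53 held 1 and 2 counts, library 46 lay under the YFP- range and library 48 within it. The log2 fold change was -1.53 (standard error 1.49, adjusted p = 0.699), and without the YFP+ library 21 it was -1.12 (standard error 1.27, adjusted p = 0.640).

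Rora, a nuclear receptor of group 2 innate lymphoid cells and tissue Treg cells, lies on chromosome 9 from 68653786 to 69388246. It measured 119, 24.5, 22.6 and 44.7 CPM in YFP+ libraries 21, 46, 48 and 53, against 38.9, 51.6, 78.5 and 49.2 CPM in YFP- libraries of the same numbers. The YFP+ library 21 was the highest of all 8, whereas libraries 46 and 48 were the lowest. With all 8 libraries the log2 fold change was -0.05 (standard error 0.57, adjusted p = 0.979), and without the YFP+ library 21 it was -0.84 (standard error 0.33, adjusted p = 0.168). Its sign changed with the scaling factors and with single libraries, so no direction is given for Rora over all 8.

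The plot of fold changes sets both fits side by side. The estimates of Batf, Maf and Nfil3 lay more than 2 standard errors from 0 in each of them, and that of Rora did without the YFP+ library 21.

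**Figure D2:**
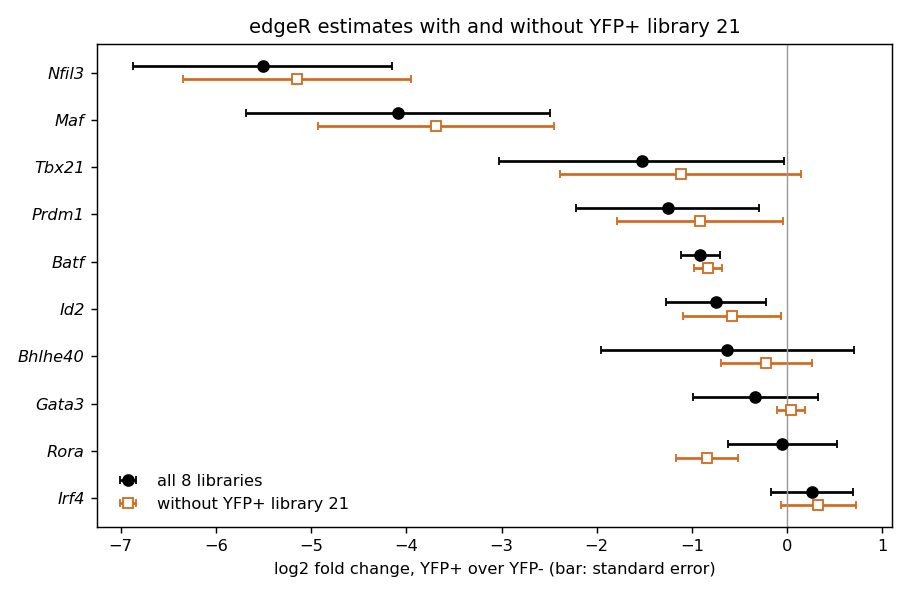
Log2 fold change of YFP+ over YFP- for each factor (horizontal axis, bar: standard error) from edgeR with all 8 libraries (black circles) and without the YFP+ library 21 (open squares). Nfil3 and Maf lie lowest, at -5.51 and -4.09, Batf has the shortest bar of the 10 with all 8 libraries, at 0.20, the estimate of Gata3 crosses 0 without that library, at 0.04, and that of Rora is then -0.84.

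The factors differed in which YFP+ libraries were low. In the YFP+ library 21, 6 of the 10 were under 10% of their YFP- mean (Prdm1, Maf, Gata3, Bhlhe40, Tbx21 and Nfil3), and in the YFP+ library 53 it was 4 (Prdm1, Maf, Tbx21 and Nfil3). In each of the YFP+ libraries 46 and 48 it was Nfil3 alone. Over all genes tested, 38.3% were that low in YFP+ library 21, 6.01% in 46, 4.22% in 48 and 12.8% in 53. Library 48 held the highest YFP+ value for 5 factors (Irf4, Maf, Id2, Tbx21 and Nfil3). Among the YFP- libraries, 48 held the highest value for 9 of the 10, all but Maf, with a median over the factors of 146% of their YFP- means, against 82.3 to 94.5% in the other 3.

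**Figure D3:**
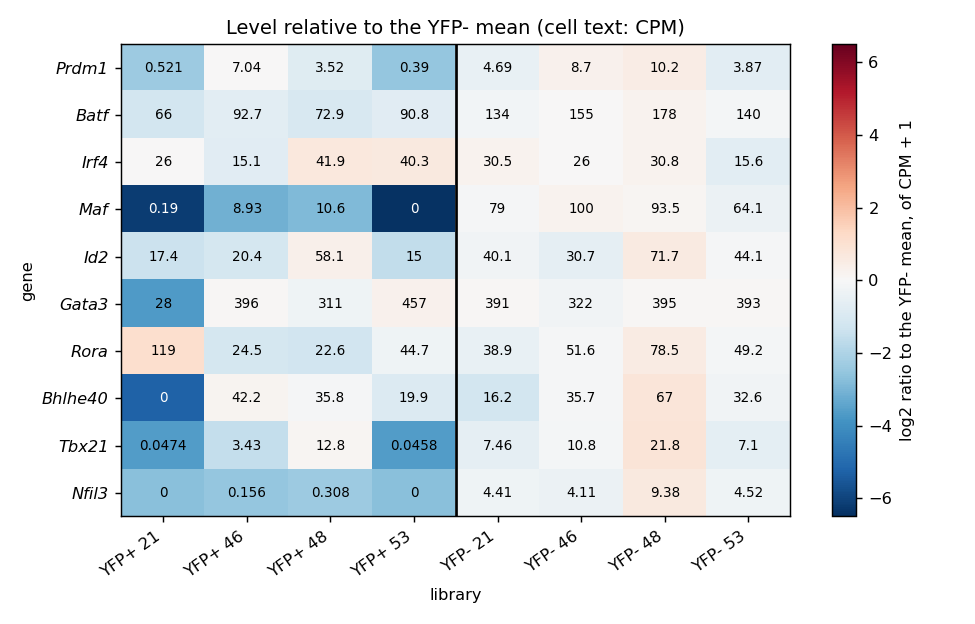
Each cell gives the CPM of a factor (row) in a library (column, YFP+ left of the line, YFP- right), coloured by the log2 ratio of CPM + 1 to the YFP- mean plus 1. Maf is dark blue in YFP+ libraries 21 and 53, at 0.190 and 0 CPM, and paler in 46 and 48, at 8.93 and 10.6 CPM, whereas Batf is pale blue in all 4 YFP+ libraries, at 66.0 to 92.7 CPM.

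Markers of other cell types also differed between the YFP+ libraries. The 11 B cell markers summed to 187.6 to 2791 CPM in YFP+ libraries, against 117 to 147 CPM in YFP- libraries, with 2791 CPM in YFP+ library 48. Of these markers Ms4a1, whose exons all lie within the span of another annotated gene, is listed at 0 everywhere. The 6 plasma cell markers summed to 90.9 to 893 CPM in YFP+ libraries, against 207 to 234 CPM in YFP- libraries. Most of the YFP- plasma cell sum was Xbp1, at 191 to 216 CPM. In YFP+ libraries 21, 46, 48 and 53, Xbp1 measured 90.9, 233, 325 and 319 CPM. Jchain measured 0, 70.9, 419 and 109 CPM there, against 1.22 to 15.8 CPM in YFP- libraries. Mzb1 measured 0, 26.1, 139 and 8.53 CPM, against 2.445 to 4.485 CPM. The other plasma cell markers stayed at or under 7.60 CPM in every library. The 10 myeloid and dendritic cell markers summed to 34.7 to 455 CPM in YFP+ libraries, against 8.37 to 15.9 CPM in YFP- libraries. Both sums were highest in YFP+ library 48. The sums of the 6 NK cell and innate lymphoid markers were 6.73 to 46.6 CPM in YFP+ libraries, against 11.4 to 29.5 CPM in YFP- libraries, with the highest YFP- sum in library 48. The 2 CD8 T cell markers summed to 23.6 to 79.7 CPM in YFP+ libraries, against 13.3 to 25.7 CPM in YFP- libraries, the 8 erythroid and neutrophil markers (Alas2 and Mpo at 0) to 156 to 2761 CPM, against 49.3 to 197 CPM, and the 6 stromal markers to 272 to 348 CPM, against 295.5 to 329.8 CPM. Nearly all of the stromal sum was Pecam1, and the other 5 summed to 0.948, 1.27, 34.8 and 2.34 CPM in YFP+ libraries 21, 46, 48 and 53, against 0.516 to 3.72 CPM in YFP- libraries. B, plasma and myeloid cells can express Irf4, Prdm1, Maf or Bhlhe40, and NK and innate lymphoid cells Id2, Tbx21, Gata3, Rora and Nfil3. The part of these cells in the levels of the 10 factors was not tested. Without the YFP+ library 48, 5 factors (Batf, Maf, Id2, Tbx21 and Nfil3) lay below the YFP- range in every YFP+ library left, beside 15.7% of all genes tested in that setting. It was 5 also without the YFP+ libraries 21 and 48, beside 20.1%, 4 without the YFP+ library 46, beside 14.6%, and 3 without the YFP+ library 21, beside 13.7%.

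**Figure D4:**
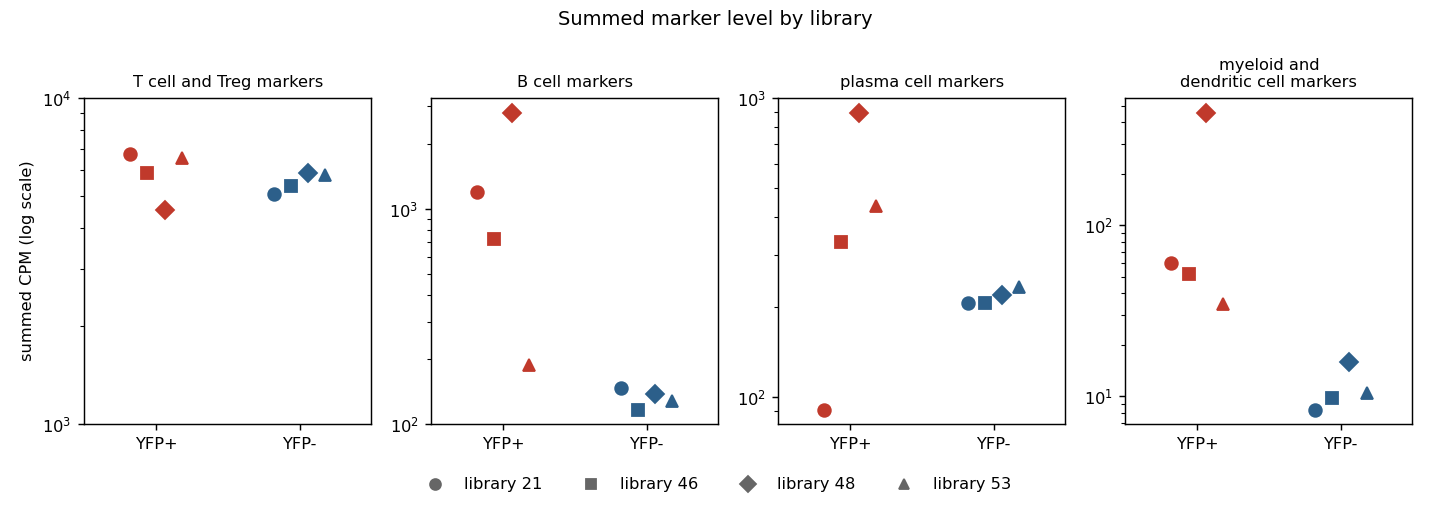
Summed CPM of the marker lists for T and Treg cells, B cells, plasma cells, and myeloid and dendritic cells (vertical axes, log scales). The 4 YFP+ libraries are red (left) and the 4 YFP- libraries blue (right), with a symbol for each library number. The T cell and Treg markers lie between 4548 and 6728 CPM in YFP+ and between 5066 and 5870 CPM in YFP- libraries, and the B cell markers reach 2791 CPM in YFP+ library 48.

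Levels of different genes were compared per kilobase of annotated exon. In YFP+ libraries the order was Gata3 (74.9 CPM per kb), Batf (57.3), Id2 (11.4), Irf4 (6.29), Bhlhe40 (5.20), Rora (4.03), Tbx21 (1.64), Maf (0.599), Prdm1 (0.514) and Nfil3 (0.0572). In YFP- libraries it was Batf (108 CPM per kb), Gata3 (94.4), Id2 (19.1), Maf (10.2), Bhlhe40 (8.05), Irf4 (5.25), Tbx21 (4.74), Rora (4.17), Nfil3 (2.77) and Prdm1 (1.23). Maf thus had rank 8 in YFP+ and rank 4 in YFP- libraries. Neighbours in these orders overlapped in their ranges, with the exception of Batf above Id2 in YFP+ libraries, and of Gata3 above Id2, Id2 above Maf and Nfil3 above Prdm1 in YFP- libraries.

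The closest relatives of the factors were taken in turn. Hlf, a bZIP factor of the family whose sites Nfil3 shares, measured 0.284, 0.0890, 0.0962 and 0.0688 CPM in YFP+ libraries 21, 46, 48 and 53, against 0.781, 2.26, 2.09 and 2.34 CPM in YFP- libraries of the same numbers. It was lower in each YFP+ library (log2 fold change -3.83, standard error 0.69, adjusted p = 0.0544 from edgeR) and passed the threshold without the YFP+ library 21 (-4.43, standard error 0.63, adjusted p = 0.0171). These values rest on only 6, 4, 5 and 3 counts in the YFP+ libraries, against 59, 181, 101 and 169 in the YFP- libraries. The stricter filter on low counts removed Hlf. Of the others in that family, Tef averaged 3.58 ± 5.42 CPM in YFP+ and 17.7 ± 3.30 CPM in YFP- libraries (log2 fold change -2.31, adjusted p = 0.492) and Dbp 11.2 ± 8.27 CPM in YFP+ and 9.51 ± 0.351 CPM in YFP- libraries (0.23, adjusted p = 0.955; SD, n = 4 each). Mafg, a small Maf protein without an activation domain, measured 0, 6.25, 4.02 and 1.97 CPM in YFP+ libraries 21, 46, 48 and 53, against 17.4, 17.2, 18.7 and 17.0 CPM in YFP- libraries of the same numbers. Each YFP+ value of Mafg lay below every YFP- value, and it passed without the YFP+ library 21 (log2 fold change -2.11, standard error 0.41, adjusted p = 0.0337), though not with it (-2.52, adjusted p = 0.426) or without 21 and 48 (adjusted p = 0.0653).

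Eomes, the T-box relative of Tbx21, averaged 0.0990 ± 0.156 CPM in YFP+ and 1.76 ± 1.29 CPM in YFP- libraries (log2 fold change -4.05, adjusted p = 0.322; SD, n = 4 each). Id3, the sister inhibitor of Id2, averaged 308 ± 85.8 CPM in YFP+ and 257 ± 30.9 CPM in YFP- libraries (0.26, adjusted p = 0.672). Batf3 averaged 0.447 CPM in YFP+ and 0.529 CPM in YFP- libraries and Bhlhe41 0.725 CPM in YFP+ and 0.222 CPM in YFP- libraries. Neither passed the filter on low counts, and Irf8 is listed at 0 in all 8 libraries. All exons of Irf8 lie within the span of another annotated gene, so its expression cannot be read from these counts. In all, 12 of the 19 relatives were tested with edgeR, and 0 of them passed with all 8 libraries. At an unadjusted p under 0.05, 2 did, beside 12.6% of all genes tested. DESeq2 covered 17 relatives and called 2 lower, beside 4.43% of the genes with an adjusted p.

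Factors that oppose the effector state had mostly positive estimates, and none passed the test with all 8 libraries. Of 9 such genes, 8 had positive and 1 a negative log2 fold change, with a median of 0.65 beside -0.02 over all genes tested. With all 8 libraries 0 passed, and 2 did at an unadjusted p under 0.05, beside 12.6% of all genes tested. Without the YFP+ library 21 the median was 0.18, with 7 positive and 2 negative estimates. Satb1, a chromatin organizer of T cells, was the 1 gene of this list called higher by DESeq2 (log2 fold change 1.60, adjusted p = 0.0279). Over the whole table, DESeq2 called 530 of the 17598 genes with an adjusted p higher. For Satb1 the values were as follows. It measured 1186, 607, 287 and 389.7 CPM in YFP+ libraries 21, 46, 48 and 53, against 233, 262, 150.1 and 154 CPM in YFP- libraries of the same numbers, and the fractions did not overlap (edgeR, 1.63, standard error 0.46, adjusted p = 0.198, and 1.09 with an adjusted p of 0.0817 without the YFP+ library 21). Lef1, a factor of resting T cells, measured 550.3, 825, 542 and 759 CPM in YFP+ libraries 21, 46, 48 and 53, against 481, 446, 354 and 394 CPM in YFP- libraries of the same numbers. Every YFP+ value lay above every YFP- value, and Lef1 passed the test without the YFP+ library 21 (log2 fold change 0.75, standard error 0.17, adjusted p = 0.0485), while with it the adjusted p was 0.229 (0.68, standard error 0.20). Without that library 424 of all 15832 genes tested were called higher. Bcl6, which represses Prdm1 and is repressed by it, averaged 17.3 ± 3.88 CPM in YFP+ and 16.7 ± 3.01 CPM in YFP- libraries (log2 fold change 0.05, adjusted p = 0.964). Bach2, which occupies AP-1 sites in resting Treg cells, averaged 618 ± 504 CPM in YFP+ and 335 ± 155 CPM in YFP- libraries (0.88, adjusted p = 0.549; SD, n = 4 each), and its highest value, 1338 CPM, was in YFP+ library 21.

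Of 12 genes for proteins that the factors bind, 11 were tested and 0 passed with all 8 libraries in either edgeR or DESeq2. Over all genes tested, edgeR called 0.836% lower and 0.0332% higher, and DESeq2 called 4.43% of the genes with an adjusted p lower. At an unadjusted p under 0.05 in edgeR it was 0 of the 11, beside 12.6% of all genes tested. Junb, which encodes a Jun partner of Batf, averaged 123 ± 69.1 CPM in YFP+ and 229 ± 48.4 CPM in YFP- libraries (SD, n = 4 each; log2 fold change -0.89, adjusted p = 0.497). Spi1 and Spib, which encode Ets factors that pair with Irf4 in B and myeloid cells, were the 2 called higher without the YFP+ library 21. In that setting 424 of all 15832 genes tested were called higher. Spi1 measured 0, 11.6, 51.1 and 8.96 CPM in YFP+ libraries 21, 46, 48 and 53, against 3.42, 1.81, 3.87 and 3.08 CPM in YFP- libraries of the same numbers (log2 fold change 2.97, standard error 0.66, adjusted p = 0.0444 without the YFP+ library 21). Spib measured 0, 20.3, 66.9 and 7.43 CPM in YFP+ libraries 21, 46, 48 and 53, against 2.65, 1.80, 5.11 and 2.51 CPM in YFP- libraries of the same numbers (3.39, standard error 0.75, adjusted p = 0.0443 without it). Both calls were lost when the YFP+ library 48 was left out as well (adjusted p = 0.0567 for Spi1 and 0.0765 for Spib). Both were highest in YFP+ library 48, where the B cell and myeloid marker sums were highest as well.

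Of 11 genes of the signalling factors upstream (NF-kappaB, NFAT and STAT), 10 had negative and 1 a positive estimate. Over all genes tested, 7668 of 15063 estimates were negative. The median log2 fold change was -0.45, beside -0.02 over all genes tested. In edgeR 0 passed, beside 0.836% of all genes lower and 0.0332% higher. DESeq2 called 0 as well, beside 4.43% of the genes with an adjusted p lower. At an unadjusted p under 0.05 in edgeR it was 0, beside 12.6% of all genes tested. Without the YFP+ library 21 the median was -0.20, with 8 negative and 3 positive estimates, and 0 passed, beside 3.97% of all genes lower. Stat5b, which carries the IL-2 signal, averaged 188 ± 27.7 CPM in YFP+ and 207 ± 30.0 CPM in YFP- libraries (SD, n = 4 each; log2 fold change -0.14, standard error 0.19, adjusted p = 0.801).

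The last list held 14 target and readout genes of the effector state. Like the other lists, it was chosen with earlier results of these data known, so its counts are description and no independent evidence. With all 8 libraries 13 had negative and 1 a positive estimate, with a median log2 fold change of -1.77, and 1 passed, Ctla4, beside 0.836% of all genes lower. DESeq2 called 5 lower (Ctla4, Itgae, Cxcr3, Klrg1 and Tigit), beside 4.43%. Without the YFP+ library 21, edgeR called 6 lower and 0 higher, beside 3.97% of all genes lower, and without 21 and 48 it called 5 lower (Ctla4, Itgae, Cxcr3, Icos and Il1rl1), beside 4.28%. Ctla4, an inhibitory receptor, measured 193, 146, 121 and 188 CPM in YFP+ libraries 21, 46, 48 and 53, against 423, 373, 349.7 and 408 CPM in YFP- libraries of the same numbers (log2 fold change -1.26, standard error 0.20, adjusted p = 0.0373). The fractions did not overlap for it. The call was lost with RLE factors (adjusted p = 0.0585), with no filter on low counts (0.0689), with the stricter filter (0.125) and when any library other than YFP+ 21 or YFP+ 48 was left out (0.0685 to 0.128).

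The integrin gene Itgae measured 0.758, 9.73, 11.2 and 14.1 CPM in YFP+ libraries 21, 46, 48 and 53, against 72.9, 91.2, 142 and 95.9 CPM in YFP- libraries of the same numbers (log2 fold change without the YFP+ library 21 -3.11, standard error 0.28, adjusted p = 0.00545). Cxcr3, the chemokine receptor that T-bet induces, measured 0, 6.79, 8.10 and 4.74 CPM in YFP+ libraries 21, 46, 48 and 53, against 66.8, 56.5, 108 and 96.3 CPM in YFP- libraries of the same numbers (-3.64 without that library, standard error 0.32, adjusted p = 0.00545). Klrg1, a receptor of terminally differentiated cells, measured 0, 3.05, 3.69 and 0.0229 CPM in YFP+ libraries, against 80.9, 58.2, 175 and 77.8 CPM in YFP- libraries in the same order of numbers (-5.43, standard error 1.14, adjusted p = 0.0401). All 3 lay below the YFP- range in every YFP+ library, as did 10.6% of all genes tested. Klrg1 and Cxcr3 were at 0 in YFP+ library 21, as were 3.51% of the genes with a YFP- mean of 50 to 200 CPM.

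Ccr8, a chemokine receptor of tissue Treg cells, was 0, 19.6, 24.2 and 33.1 CPM in YFP+ libraries 21, 46, 48 and 53, against 49.2, 57.4, 109 and 64.3 CPM in YFP- libraries of the same numbers (log2 fold change without the YFP+ library 21 -1.45, standard error 0.32, adjusted p = 0.0443). Icos, a costimulatory receptor, was 317, 73.1, 51.9 and 96.1 CPM in YFP+ libraries 21, 46, 48 and 53, against 216, 183, 291.5 and 219 CPM in YFP- libraries of the same numbers (-1.63 without that library, standard error 0.24, adjusted p = 0.0188). The YFP+ library 21 had the highest value of all 8 for Icos, and the other YFP+ libraries lay below the YFP- range. With all 8 libraries the adjusted p of these 5 genes was 0.114 for Itgae, 0.244 for Cxcr3, 0.198 for Klrg1, 0.561 for Ccr8 and 0.588 for Icos. Without the YFP+ libraries 21 and 48, the calls of Klrg1 (adjusted p = 0.0630) and Ccr8 (0.0958) were lost.

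The plot of fold changes by list shows these groups beside the 10 factors, whose own median log2 fold change was -0.83 with 9 negative estimates, and 8 without the YFP+ library 21. Over all genes tested, 7668 of 15063 estimates were negative.

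**Figure D5:**
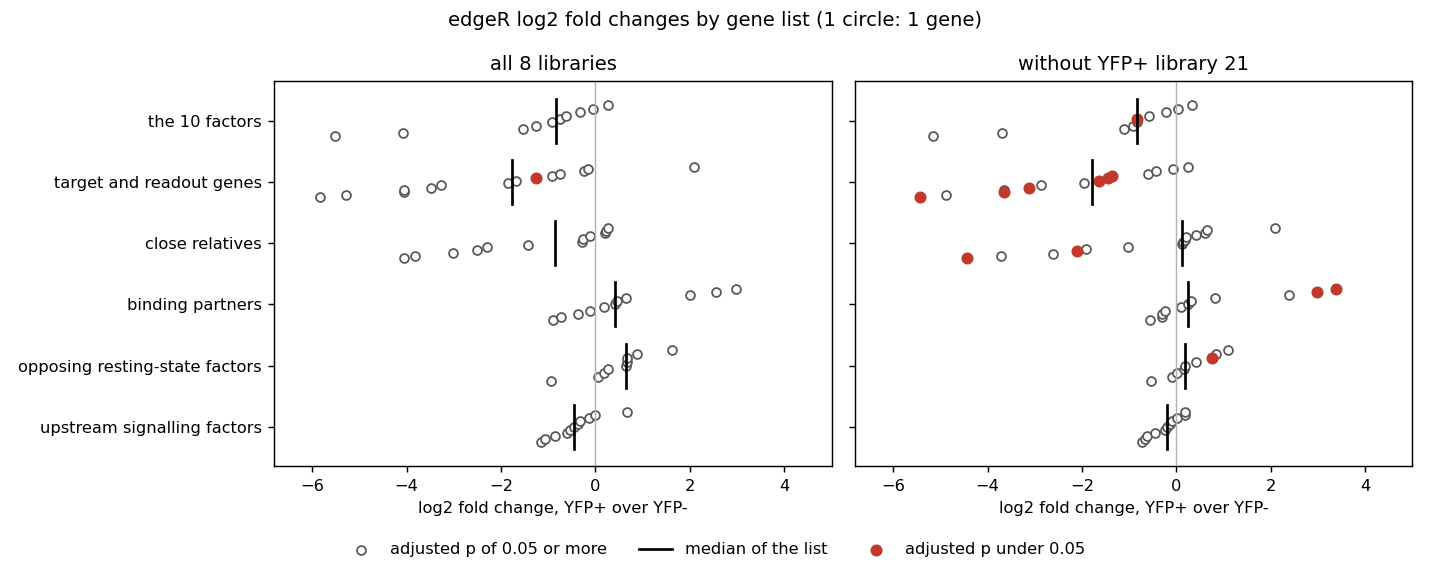
Log2 fold change of YFP+ over YFP- (horizontal axes) for the genes tested in each list, with all 8 libraries (left) and without the YFP+ library 21 (right). Open circles are genes that did not pass, red circles are genes with an adjusted p under 0.05 and black bars are list medians. The medians of the 10 factors and of the target genes lie at -0.83 and -1.77 on the left, and 6 target genes are red on the right, against 1 on the left.

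For the 3 factors with the lowest p, the genes with the most similar profile over the 8 libraries were found by the root-mean-square difference of centred log2(CPM + 1) values, among 8843 genes. Nearest to Batf were Arhgap30 (difference 0.148), Ikzf4 (0.164), which encodes the Treg cofactor Eos, and Mllt6 (0.166). Ikzf4 averaged 106 ± 18.5 CPM in YFP+ and 169.9 ± 18.5 CPM in YFP- libraries (SD, n = 4 each; log2 fold change -0.68, adjusted p = 0.226 from edgeR and 0.0191 from DESeq2). Nearest to Maf were Prg4 (0.251), Ncmap (0.394) and Tigit (0.528), an inhibitory receptor of effector Treg cells that averaged 2.66 ± 3.09 CPM in YFP+ and 104 ± 32.6 CPM in YFP- libraries (SD, n = 4 each; log2 fold change -5.28, adjusted p = 0.287 from edgeR and 0.0265 from DESeq2). Nearest to Nfil3 were Gm2956 (0.402), Gm3005 (0.408) and Gm45837 (0.410). Their edgeR log2 fold changes were -3.15, -3.20 and -2.09, against -5.51 for Nfil3, so the resemblance is loose. Predicted genes of this kind can have near-identical copies, between which reads may be split, so their counts are uncertain.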

How the data were processed

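Bulk RNA libraries from sorted YFP+ and YFP- cells were sequenced. The authors deposited raw counts, 1 column per library and 1 row per Ensembl gene, without normalization. Trim Galore, STAR and mm10 are named in the submitters' processing notes; their versions, the counting tool and its strand setting are not stated there or in the paper. Fractions were read from the submitters' titles. In R 4.3.3, edgeR 4.0.16 removed genes with low counts (filterByExpr, minimum count 10, minimum total 15) and compared the fractions by the quasi-likelihood F-test after TMM scaling, with no other covariate. P-values were adjusted by Benjamini and Hochberg across 15063 genes, with a threshold of 0.05, and standard errors were obtained as the size of the log2 fold change over the root of F. A floor of 3 counts equals 0.0577 to 0.142 CPM in YFP+ libraries and, in YFP- libraries, 0.0374 to 0.0620 CPM (counting error only). DESeq2 1.42.0, RLE or upper-quartile scaling, other filters (none, or 5 CPM in 4 libraries), a block for the library number and left-out libraries served as alternatives. Scripts were tested on simulated data. With all 8 libraries, 0, 7.35 and 18.8% of simulated 2-, 4- and 8-fold changes were called. Without the YFP+ library 21 it was 14.3, 56.7 and 66.1%. A gene that did not pass is thus not shown to be unchanged. Coordinates and exon lengths are from GENCODE M21 (GRCm38), in which 99.3% of the gene identifiers occur. The 10 factors, the lists and the alternatives were chosen with earlier results of these data known. Genes named are the 10 factors, genes of the lists called with all 8 libraries or without the YFP+ library 21, direct relatives or opponents of a factor (1 is not reported here), and the 3 nearest profiles (mean log2(CPM + 1) of at least 3) of the 3 factors with the lowest p. Il10, Junb, Stat5b, Satb1, Pecam1, Xbp1, Jchain, Mzb1 and the T cell genes were added after their values were seen. Apart from Jchain and Mzb1, called markers of other cell types are given only within sums.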

Additional observations from a re-analysis of the deposited data

Results flagged for a closer look

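In each group of 4 libraries, the log2(CPM + 1) values of the 10 factors were screened with Dixon's ratio, the gap between an extreme library and its nearest neighbour divided by the range. Chance passes the critical value in about 1 of 20 groups. Of the 20 groups screened, 3 passed. For Gata3, the YFP+ library 21 lay below the others (ratio 0.861), at 28.0 CPM. In the YFP- libraries, 46 lay below the others for Gata3 (ratio 0.953), at 322 CPM against 391 to 395 CPM. For Nfil3, the YFP- library 48 lay above the others (ratio 0.891), at 9.38 CPM against 4.11 to 4.52 CPM.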

How the results depend on the processing

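The count of factors called lower in YFP+ was 0 with all 8 libraries, 2 with DESeq2, 1 without the YFP+ libraries 21 and 48, and 0 to 1 with each library left out in turn. No factor was called higher in any of these settings. The number below the YFP- range in every YFP+ library was 3, ranged over 3 to 5 with single libraries left out (11.8 to 15.7% of all genes tested), and was 5 without the YFP+ libraries 21 and 48 (20.1%). The log2 fold change of Gata3 turned positive without the YFP+ library 21 (0.041) and without 21 and 48 (0.18), with a range of -0.62 to 0.041 over single libraries left out. That of Rora turned positive with RLE factors (0.028), with the stricter filter (0.017), and without the YFP+ library 46 (0.07), the YFP+ library 48 (0.20) or the YFP- library 48 (0.16), with a range of -0.84 to 0.20 over single libraries left out. The cause was not tested. The other 8 factors kept their sign in every alternative that gave a value, and the stricter filter removed Nfil3. Adjusted p ranged over 0.000525 to 0.436 for Batf, 5.52e-06 to 0.436 for Nfil3 and 0.0612 to 0.690 for Maf. Over all genes, 131 passed with all 8 libraries, against 1310 with DESeq2, 10 with no filter, 9 with the stricter filter, 1052 without the YFP+ library 21, 236 without the YFP+ library 48, 940 without both and 0 when any 1 of the other 6 libraries was left out. The library numbers were not shown to mark a shared mouse: deviations of same-numbered libraries correlated at 0.0489 to 0.140, and YFP+ libraries 46, 48 and 53 each correlated best with the YFP- library of their own number, whereas YFP+ 21 did with YFP- 46 (0.0677). With the library number as a replicate block, 0 factors and 0 genes passed (1440 genes at an unadjusted p under 0.05, against 1892 without the block), and Ctla4 had an adjusted p of 0.338, with the call lost. Under the block the median over all genes shifted to -0.32.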
